A study of Mus musculus with 16 samples.

Results

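Ctnnb1, Marcks and Nfib were examined as 3 of the 43432 gene rows of the deposited mouse RNA-seq table, together with the 322 same-strand Ago2 regions inside their spans, of 962700 regions in all. They were chosen by their high region scores in the deposited summary of a differential Ago2 CLIP analysis, so their scores and coverage are given as a description with no test. RNA values were not part of that rule, though earlier results of these data were known, and the RNA difference between KO and Flox was tested. The cells were splenic B cells of strain C57B6L/J, from mice labelled KO or Flox in a series on targets of miR-221-3p and miR-222-3p. All had been grown for 4 days with antibody to CD40 at 500 ng/ml, IL-4 at 25 ng/ml and IL-21 at 10 ng/ml, so no group was left without stimulation. There were 4 KO and 4 Flox libraries by RNA-seq and 4 and 4 by Ago2 HITS-CLIP. The labels give neither age, nor the agent that deleted the floxed sequence, nor whether libraries came from separate mice, so p-values measure only the spread between these libraries, which may be technical. The Flox columns of the table are headed WT.

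Ago2 is the protein that carries a miRNA to its target RNA, and HITS-CLIP reads out short pieces of RNA crosslinked to it by ultraviolet light, largely miRNAs themselves and parts of mRNA 3′ untranslated regions. A miRNA finds its target mainly through its seed, the bases near its 5′ end. Ctnnb1 encodes β-catenin, which links cadherins to the cytoskeleton and, when the Wnt pathway spares it from degradation, enters the nucleus as a partner of TCF and LEF factors. Marcks encodes a membrane-bound substrate of protein kinase C that binds calmodulin, actin and the lipid PIP2. Nfib encodes a DNA-binding factor of the nuclear factor I family, best known from lung and brain development.

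The miRNAs of the series are shown first because the series is on their targets. Whether the KO cells lacked them was not examined here. Their mature sequences (RefSeq, GRCm38.p6, chromosome X, minus strand, 19146307 to 19146329 and 19146901 to 19146923) are each 23 bases long, and the capitals mark the seed, bases 2 to 8.
mmu-miR-221-3p: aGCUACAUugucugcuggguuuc
mmu-miR-222-3p: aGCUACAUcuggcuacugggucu
The seeds were identical, GCUACAU, and the sequences differ only after them. Seed matches in the 3 genes were not analysed here, because no transcript sequence was used.

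The deposited score measures a part of binding only. dCLIP, the program that made these files, compares a pair of conditions and gives each stretch of 5-nt bins a hidden state of 0, 1 or 2. The files do not say which condition is KO, so no CLIP value below has a direction by genotype. In 100% of the 89377 regions of state 2 and of the 318563 regions of state 0 the score was within 0.1 of the mean coverage per nucleotide of the stronger condition, which was condition 1 in state 2 and condition 2 in state 0. In all 554760 regions of state 1, where no difference was called, the score was 0. A deeply bound region without a called difference therefore had no score. Pooled coverage, the coverage of both conditions added together in reads per nucleotide, is used below beside the score. The files do not say which libraries entered each condition and do not keep libraries apart, so it has no replicate error. Its median over all regions was 3.30.

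In Ctnnb1 the deepest Ago2 signal lay within the last 500 nt of the gene (GRCm38 chromosome 9, 120929216 to 120960507, plus strand). Its highest score, 227.5, was that of a region of 60 nt at 120960215 to 120960274, centred 262.5 nt before the annotated 3′ end, where pooled coverage was 351.03. The region directly upstream of it, at 120960160 to 120960214, was deeper, at 584.13 reads per nucleotide, and had a score of 0 because it was in state 1. The deepest single bin of the gene, with 704.0 reads per nucleotide, was in that unscored region, 315 nt from the 3′ end. By highest score Ctnnb1 ranked 86th of 18939 genes with a region, tied with Ctss, and by deepest region it ranked 62nd. The genes next above it by score were Gm13340, a pseudogene, at 229.8 and Snord49b, a small nucleolar RNA gene, at 232.6, and next below came Eef2, a translation elongation factor gene, at 227.2. The next highest score within Ctnnb1 was 107.8, at 120960075 to 120960159, where pooled coverage was 169.04.

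**Figure D1:**
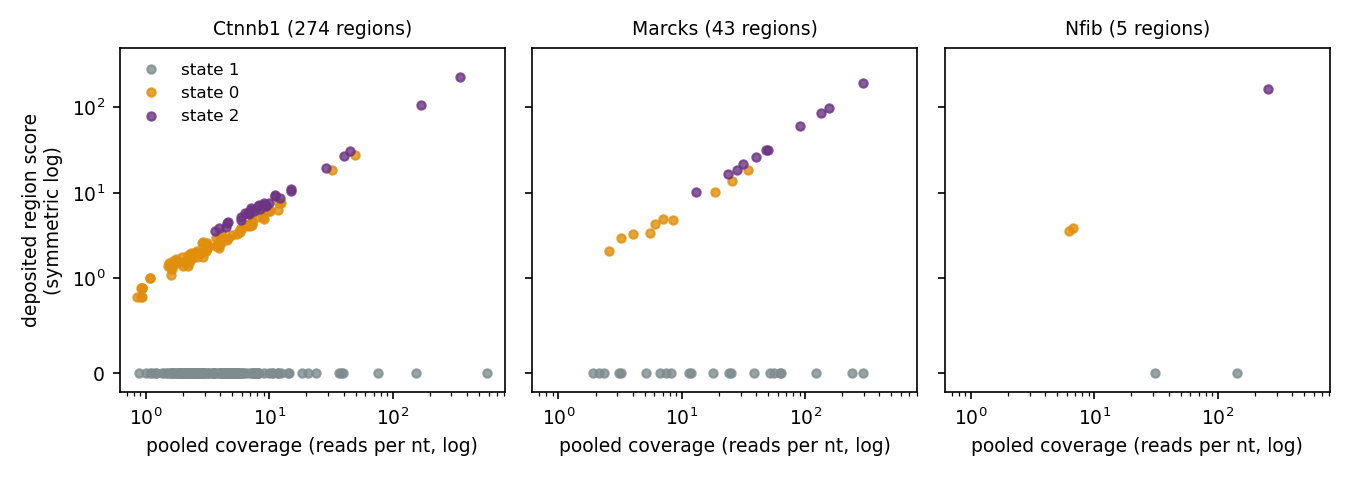
Deposited region score (symmetric log axis) against pooled Ago2 coverage in reads per nt (log axis) for every region of Ctnnb1, Marcks and Nfib, coloured by dCLIP state. Regions of state 1 all lie at a score of 0, among them the deepest region of Ctnnb1, at 584.13 reads per nt.

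A single run of joined bins, 1250 nt long from 120959275 to 120960524, held 58.0% of the coverage of Ctnnb1. It was cut by state into 16 regions, 8 of state 1, 5 of state 2 and 3 of state 0. The last 500 nt of the gene held 47.9% of its coverage and the last 1000 nt held 57.2%. After the summit at 704.0 reads per nucleotide, the next summits were 246.2 at 490 nt, 122.4 at 70 nt and 120.0 at 155 nt from the 3′ end. Each of these was in state 1. Further upstream in the same run, a region of state 0 at 120959860 to 120959909 (score 28.0, mean difference -0.366) was separated by short regions of state 1 from regions of state 2 on both sides (mean differences of 0.346 and 0.300). The sign of the dCLIP difference thus alternated along this run.

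The rest of Ctnnb1 was covered broadly and thinly. The gene had 274 regions, which spanned 60.97% of its length, and 250 of them lay more than 3000 nt from the 3′ end. These had a median pooled coverage of 3.74, against 22.34 for the 24 regions within 3000 nt. The deepest of the distant regions had 36.4 reads per nucleotide. A summit of 104.4 reads per nucleotide in state 0 stood 9595 nt from the 3′ end, and another of 71.2 in state 1 at 5085 nt. Exons and introns were not told apart here.

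Marcks (chromosome 10, 37133375 to 37138920, minus strand) was bound over a much longer stretch. A run of 3025 nt, from 37133325 to 37136349, held 95.6% of its coverage in 28 regions. Its highest score was 191.8, in a region of 225 nt at 37135170 to 37135394 with a pooled coverage of 294.89, centred 1907.0 nt from the annotated 3′ end. Here too the neighbouring region of state 1, at 37135395 to 37135634, was as deep (296.34) and had a score of 0, and it held the deepest bin of all 3 genes, 859.4 reads per nucleotide at 2117 nt. By highest score Marcks ranked 141st and by deepest region 302nd. The genes next above it were Gm22357, a small nucleolar RNA gene, and n-R5s110, a ribosomal RNA gene, at 192.4 and 192.1, and next below were Sox4, a transcription factor gene, and Rnu2-10, a small nuclear RNA gene, at 191.6 and 191.5. Other high scores in Marcks were 99.2 at 37135730 to 37135824, 85.2 at 37134855 to 37135069, 61.5 at 37135635 to 37135664 and 32.0 in 2 further regions.

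The position of the summits separated Marcks from Ctnnb1. The last 1000 nt held 11.4% of the coverage of Marcks, against 57.2% in Ctnnb1, and the last 3000 nt held 95.6%. Between 1477 and 2412 nt from its end Marcks had summits of 859.4, 478.0, 416.2, 365.8, 310.0, 237.0, 206.6 and 169.2 reads per nucleotide. Nearer the end the summits were lower, for example 116.2 at 142 nt and 103.0 at 857 nt. A separate run at the 5′ end of the gene, 37138405 to 37138934, held 3.4% of the coverage and a summit of 74.4 in state 0. RefSeq (GRCm38.p6) places the 3′ end of Marcks 132 nt further downstream than the deposited table, to whose end all distances here were measured.

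**Figure D2:**
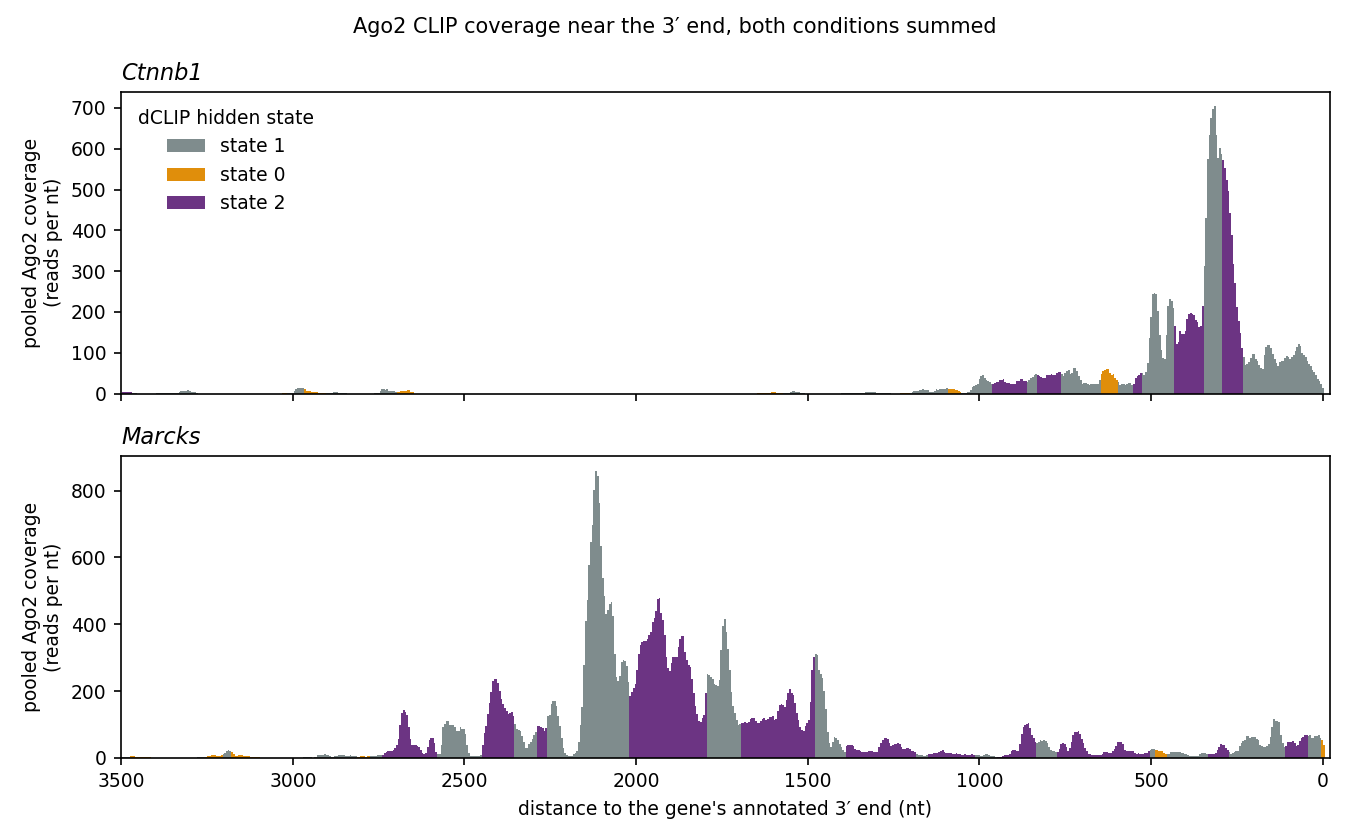
Pooled Ago2 coverage per 5-nt bin (reads per nt, both conditions summed) against distance to the annotated 3′ end in nt, for Ctnnb1 (above) and Marcks (below), coloured by dCLIP state. Ctnnb1 peaks at 704.0 within the last 500 nt, whereas Marcks peaks at 859.4 at 2117 nt and has many summits.

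The states along both genes are given as a description. Over all 962700 regions 9.28% were in state 2 and 33.1% in state 0. The score that chose the genes is 0 outside these states, and the highest-scoring region of both genes is in state 2 within 3000 nt of the 3′ end. Nothing is therefore read from the members' counts or coverage shares by state. The counts were 32 and 89 of 274 regions in Ctnnb1 and 11 and 10 of 43 in Marcks. In Marcks all 11 regions of state 2 lay within 3000 nt of the 3′ end, where they held 51.6% of the coverage, and 7 of its 10 regions of state 0 lay farther away. In Ctnnb1 state 2 held 34.6% of the coverage within 3000 nt and 11.4% beyond, and state 0 held 2.9% and 22.0%. State 1 held 64.2% of all coverage of Ctnnb1 and 47.9% of that of Marcks. Over the whole series the coverage fell 58.1% to state 1, 26.0% to state 0 and 15.9% to state 2.

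Compared with other expressed genes, the depth of these sites was high, and the share of coverage within 3000 nt of the 3′ end was ordinary in Ctnnb1. Among 10219 protein-coding genes with a region and a mean RNA level of at least 10, the deepest region had a median of 16.13 reads per nucleotide. Ctnnb1 lay at the 99.7th and Marcks at the 98.8th percentile of that measure. The share of coverage within 3000 nt of the 3′ end had a median of 45.4%, and Ctnnb1, at 59.0%, lay at the 59.8th percentile. Ctnnb1 held 47.9% of its coverage within the last 500 nt alone, and genes were not ranked for windows narrower than 3000 nt. Marcks, at 95.6%, lay at the 84.5th, in a gene whose whole span is 5546 nt. Ago2 coverage per normalized RNA count, in nucleotides of aligned reads, was 20.2 in Ctnnb1 and 42.6 in Marcks against a median of 6.53. By this measure Ctnnb1 lay only at the 76.8th and Marcks at the 88.6th percentile. Both were chosen for depth, so these places are a description.

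The data go against the label of strong Ago2 binding for the Nfib transcript. Nfib (chromosome 4, 82290173 to 82705750, minus strand) had 5 regions in a span of 415578 nt, and together they covered 0.04% of it. Its highest score, 163.2, came from a region at 82619650 to 82619704 with a pooled coverage of 254.78, and with the adjoining region at 82619615 to 82619649 (142.29, score 0) this site held 93.4% of all coverage in the span. The site is 329504.0 nt from the 3′ end of the gene. It coincides with n-THgtg10, a gene for the histidine tRNA with anticodon GTG, at 82619623 to 82619694 in RefSeq (GRCm38.p6), and it lies outside the narrower span of 216579 nt that RefSeq gives Nfib, 82290173 to 82506751. The RefSeq table used here gives no strand for the tRNA gene.

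In rank by score the Nfib span stood next to Slirp (164.7) and Gng5 (163.2). The remaining 3 regions of Nfib were much shallower than the tRNA site, though each was above the median of 3.30 over all regions. They had pooled coverages of 30.8 at 82342850 to 82342879, 6.73 at 82655285 to 82655314 and 6.26 at 82494840 to 82494874, with scores of 0, 3.9 and 3.6. The last of them overlapped 2310067E19Rik, a miscellaneous RNA gene in RefSeq. Without the tRNA site Nfib fell from rank 214 to rank 13233 by score and from rank 382 to rank 4763 by depth. No region lay within 3000 nt of its 3′ end. All 3 genes thus have a high region score, but that of Nfib lies at the tRNA gene and not near the 3′ end. It is called here the tRNA site in the Nfib span.

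Histidine tRNA genes elsewhere carried similar coverage. All 10 RefSeq genes named for this anticodon overlapped a region, with a deepest region of 40.6 to 432.4 reads per nucleotide and a median of 229.3, and 4 copies were deeper than the copy inside the Nfib span, at 254.8. The other copies lie on chromosomes 2 and 3. Of 430 tRNA genes 363 overlapped a region, with a median of 83.5. Mitochondrial tRNA genes are counted in the 430 but were not matched to the CLIP data by chromosome name. Their coverage was therefore not assessed, here or in the overlap counts below. How reads that fit several tRNA genes were placed is not given in the sources used here, so the depth at any 1 gene is uncertain. Of the 1000 regions with the highest scores 44 overlapped a tRNA gene. Among the 500 protein-coding genes with the highest scores, the best region of 3 genes overlapped a tRNA gene and that of 70 a small RNA gene of some kind, whereas no region of Ctnnb1 or Marcks overlapped another RefSeq gene.

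**Figure D3:**
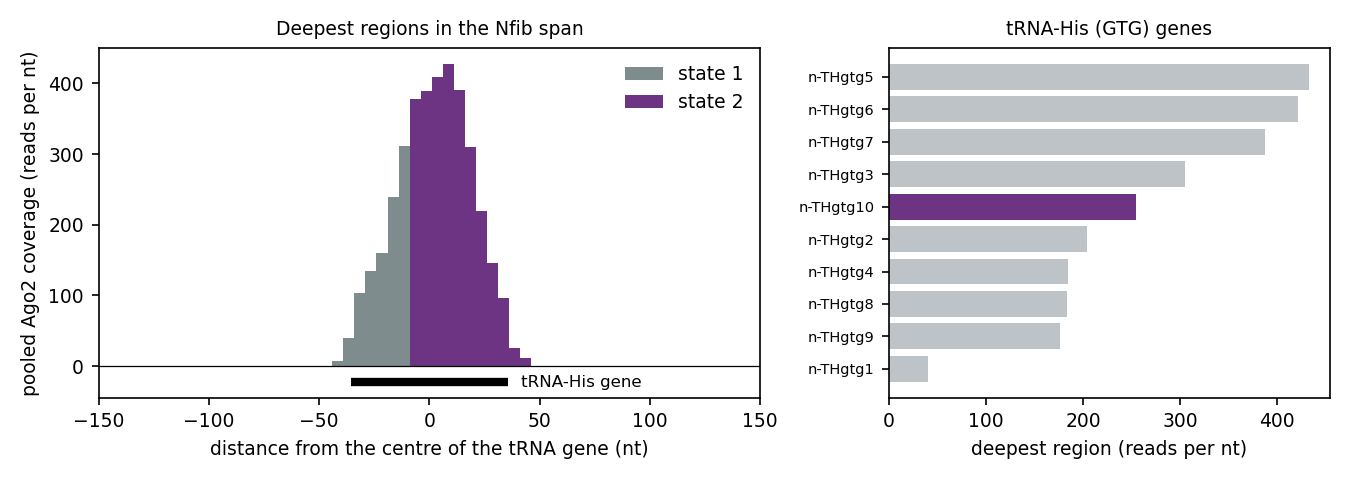
Left, pooled Ago2 coverage (reads per nt) against distance in nt from the centre of the tRNA-His gene inside the Nfib span, coloured by dCLIP state, with the gene as a black bar. Right, the deepest region at each of the 10 tRNA-His (GTG) genes, with n-THgtg10 in purple at 254.8.

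RNA-seq was then used to ask whether the level of each transcript differed between KO and Flox cells. Depth was 22947689 to 39236132 reads in the KO and 25421025 to 39616596 in the Flox libraries. Of 13091 genes with a mean of at least 10 normalized counts, 9 passed an adjusted p of 0.05 in limma, which is 0.0687% of them. Of the 3 genes, 2 were high enough to be tested and 0 passed. At an unadjusted p under 0.05 the count was also 0, against 15.1% of all genes, and neither was called by edgeR or by DESeq2, which called 1.52% of all genes. The markers of B cells and plasma cells, 7 of 7 and 5 of 5 tested, were abundant, and those of T cells, which were 0 of 7 tested, summed to 5.2 to 30.8 normalized counts in KO and 9.3 to 25.8 in Flox. Apart from B and plasma cells, the sum of a marker list was at most 102.9 in KO and 92.6 in Flox, both for myeloid cells. Platelet markers, of which 1 of 4 was tested, summed to 37.0 to 56.1 in KO and 57.9 to 76.5 in Flox without overlap. The groups did not overlap in 7.97% of all genes tested, so nothing is read from this gap. The part of platelet markers in the results was not tested. The 7 B cell markers summed to 95756.0 to 119958.4 in KO and 109012.0 to 115406.1 in Flox. On the first principal component (33.5% of the variance) the Flox libraries took scores of 14.48 to 26.49, against -37.97 in KO 1, -15.35 in KO 2, -35.62 in KO 3 and 7.47 in KO 4. KO 1 and KO 3 thus lay farthest from the Flox libraries on it. Fits without both, given below, have fewer KO libraries and lack the most distant ones. Nothing is therefore read from a smaller difference or a lost call in those fits. In bulk samples, fewer cells of a type and less RNA per cell cannot be told apart.

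Ctnnb1 RNA was nearly the same in every library. It was at 9947.2, 10475.6, 10327.2 and 10084.0 normalized counts in KO 1 to 4 and at 10902.4, 10146.8, 10213.8 and 10214.4 in Flox 1 to 4. The groups overlapped, and Flox 1 alone stood above the others. The means were 10209 ± 237 and 10369 ± 357 (SD, n = 4 each). The log2 fold change was -0.02 (SE 0.07, limma adjusted p = 0.899), with a 95% interval of -0.175 to 0.131, that is 0.885 to 1.095 times the Flox level. The exact permutation p, two-sided over the 8 libraries, was 0.543. The spread over the 8 libraries was small: the SD of log2 values was 0.041, at the 0.2 percentile of the 10161 tested genes with a mean of at least 100. The authors' deposited table gives a log2 fold change of -0.02 with an adjusted p of 0.909.

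Marcks RNA was more variable, mainly among the KO libraries. It was at 7899.8, 6751.2, 4519.6 and 6594.6 normalized counts in KO 1 to 4 and at 6695.8, 7583.3, 8112.2 and 7346.5 in Flox 1 to 4. KO 3 was the lowest of the 8, and the other KO libraries lay within or just below the Flox range. The means were 6441 ± 1407 in KO and 7434 ± 587 in Flox (SD, n = 4 each). The log2 fold change was -0.23 (SE 0.15, limma adjusted p = 0.446), with a 95% interval of -0.56 to 0.09. The exact permutation p was 0.257, two-sided. Without KO 3 the log2 fold change was -0.07 (limma adjusted p = 0.763). The authors' deposited table gives a log2 fold change of -0.21 with an adjusted p of 0.512.

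Marcksl1, the other member of the MARCKS family, had its lowest value in the same library. It was at 13925.7, 12589.5, 7550.0 and 10343.9 normalized counts in KO 1 to 4 and at 11632.0, 11757.5, 11488.6 and 12494.5 in Flox 1 to 4, and the groups overlapped. The log2 fold change was -0.13 (SE 0.16, limma adjusted p = 0.700), but 0.04 without KO 3 and 0.03 with span and GC content of the genes fitted out. The ratio of Marcks to Marcksl1 counts within a library ran from 0.536 to 0.638 in KO and from 0.576 to 0.706 in Flox. In CLIP, Marcksl1 had 14 regions, a highest score of 25.7 and a deepest region of 56.94 reads per nucleotide, against 296.34 in Marcks.

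Nfib RNA was almost absent. Its row had 0, 0, 0 and 1 read in KO 1 to 4 and 0, 1, 0 and 1 read in Flox 1 to 4, 3 reads in all, and a count of 0 allows up to 3 reads in a library (counting error only). No difference was detectable at this depth, and the row did not enter the test. The values thus hold Ago2 reads at a tRNA gene and next to no RNA of the gene whose span it lies in. The fraction that RNA-seq measured is labelled total RNA, and whether tRNA would be captured in it is not given in the sources used here.

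**Figure D4:**
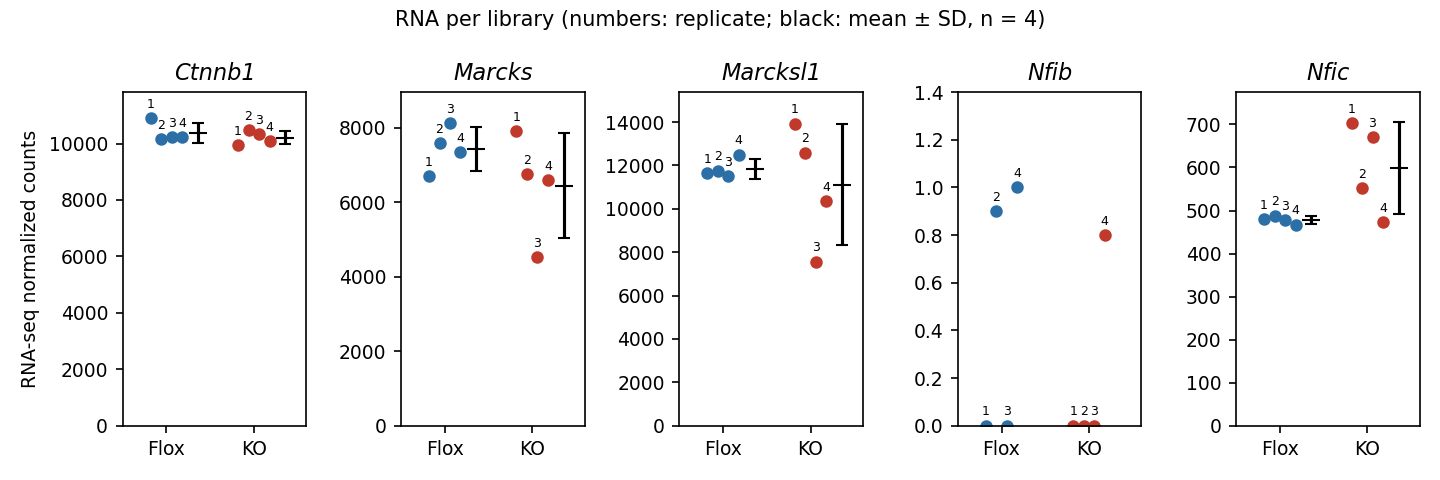
RNA-seq normalized counts of 5 genes in each Flox and KO library (points, numbered by replicate, each axis from 0; black marks are mean ± SD, n = 4, left out for Nfib). Ctnnb1 varied least, KO 3 was lowest for Marcks and Marcksl1, and Nfib was at 1.0 or below throughout.

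The other nuclear factor I genes, which share the DNA-binding domain of Nfib, were all detected. Nfic was at 702.9, 551.6, 670.6 and 472.9 normalized counts in KO 1 to 4 and between 467.0 and 487.8 in Flox, so that the log2 difference was 0.31 (SE 0.13; adjusted p = 0.309 in limma). Nfix was at 329.8, 213.9, 255.5 and 182.7 in KO and between 157.5 and 186.7 in Flox, a log2 difference of 0.49 (SE 0.18; adjusted p = 0.275 in limma). In both, KO 4 lay within the Flox range and KO 1 was the highest library. Nfia was at 67.1 ± 19.4 in KO and 55.3 ± 6.90 in Flox (SD, n = 4 each), at 0.24 (SE 0.23), but 0.07 without KO 1 and 0.05 with span and GC content fitted out. None of the 3 passed. Without KO 1 and KO 3 Nfic was at 0.10 and Nfix at 0.21, and the median of the 3 was 0.10 against 0.31 over all libraries. In CLIP the deepest region was 22.97 reads per nucleotide in Nfic, 13.1 in Nfia and 4.51 in Nfix.

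The genes whose RNA followed Ctnnb1 and Marcks most closely over the 8 libraries are given as a description, since all share library and scaling. For Ctnnb1 they were Mtrf1l (Pearson r = 0.976 over log2 values), which encodes a mitochondrial release factor, Atp1b3 (0.947), a subunit of the sodium pump, Cacybp (0.941), a partner of the ubiquitin ligase SIAH1 that acts on β-catenin, and Vps50 (0.925). In each of the 4 genes Flox 1 was the highest library. Without Flox 1 and KO 1, the libraries farthest from the median of Ctnnb1, r was 0.851, 0.882, 0.920 and 0.619 over 6 libraries. For Marcks they were Gemin8 (0.985), of the SMN complex, Btg1 (0.984), an antiproliferative gene, C87436 (0.983) and Lin37 (0.978), of the DREAM complex. KO 3 was the lowest library in each of these 4. Without KO 3 and Flox 3 their r was 0.867, 0.979, 0.981 and 0.850. Marcksl1 stood at 0.889, rank 202, and at 0.701 without these libraries.

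Genes that act with β-catenin, MARCKS or the nuclear factor I family were grouped by role, from lists chosen with earlier results of these data known. Of 82 tested genes in the 8 lists, 0 passed in limma, 0 in edgeR and 5 in DESeq2, against 0.0687%, 0.0687% and 1.52% of all genes. At an unadjusted limma p under 0.05, 20 were higher and 2 lower in KO, against 7.74% and 7.39% of all 13091 genes. The median log2 fold change was 0.12, against -0.01 over all genes. Over all 13091 genes 6344 had a positive log2 fold change, to be set beside the positive counts given per list below. Without KO 1 and KO 3, the numbers at an unadjusted p under 0.05 were 7 and 4 of the 82, against 2.73% and 3.48% of all genes. The median was then 0.04 against 0.00 over all genes, and DESeq2 called 0 list genes and 0.199% of all genes, so calls were fewer over all genes too.

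Wnt ligands were mostly silent: 3 of 19 were tested. Wnt10b was the only one of them above 100 normalized counts, at 598 ± 166 in KO and 676 ± 126 in Flox (SD, n = 4 each), and Wnt10a and Wnt3 had means under 30. Of the receptors and surface regulators 11 of 22 were tested, with 8 positive and 3 negative log2 fold changes and a median of 0.33 (0.25 without KO 1 and KO 3). Lrp6, a co-receptor for Wnt, was at 2247.1, 1884.4, 2354.0 and 1944.8 in KO and 1826.5, 1781.7, 1472.8 and 1342.0 in Flox, so that the groups did not overlap, as in 7.97% of all genes tested. Its log2 fold change was 0.40 (SE 0.12, limma adjusted p = 0.241). Fzd6, a Frizzled receptor, was at 0.66 (SE 0.23), and Znrf3, a ligase that removes these receptors, at 0.39 (SE 0.14). Wls, which carries Wnt proteins to the surface, was at -0.46 (SE 0.17). With span and GC content fitted out Lrp6 was at 0.26 and Znrf3 at 0.235, and without KO 1 and KO 3 Lrp6 was at 0.265 and Fzd6 at 0.32. Wnt10b (-0.20) was at -0.04 without KO 1.

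In the list of the destruction complex, which marks β-catenin for degradation, and of Dishevelled, 11 of 17 tested genes were positive and 6 negative, with a median of 0.04. Dvl3, of the Dishevelled family, averaged 572 ± 102 in KO and 345 ± 62.0 in Flox (SD, n = 4 each). It differed by 0.73 on the log2 scale (SE 0.16; adjusted p = 0.238 in limma). DESeq2 called it (adjusted p = 0.00822). Without KO 1 and KO 3 it was not called, and DESeq2 calls were then fewer over all genes too. Its DESeq2 log2 fold change was 0.49 there (DESeq2 adjusted p = 0.546), against 0.725 over all libraries. Gsk3b, a kinase of β-catenin, was at 0.31 (SE 0.09), Tnks, which destabilises Axin, at 0.40 (SE 0.12) and Apc, a scaffold of the complex, at 0.31 (SE 0.12). With span and GC content fitted out these were 0.16, 0.25 and 0.18, and without KO 1 and KO 3 Gsk3b was at 0.185. The groups did not overlap in Dvl3, Gsk3b and Tnks, as in 7.97% of all genes tested. These genes were named for their small p, so nothing is read from the lack of overlap. The deepest Ago2 region in this list was in Csnk1a1, the priming kinase of β-catenin, at 393.69 reads per nucleotide.

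Of the nuclear partners of β-catenin 11 of 17 tested were positive, with a median of 0.14 (0.02 without KO 1 and KO 3). DESeq2 called 4 of them higher in KO: Crebbp and Ep300, both acetyltransferases, Bcl9, a coactivator, and Tcf7l1, a TCF factor. Their DESeq2 log2 fold changes were 0.64, 0.54, 0.45 and 0.57, with adjusted p of 0.00966, 0.0292, 0.0166 and 0.0280. Without KO 1 and KO 3 they were 0.40, 0.29, 0.33 and 0.45, with DESeq2 adjusted p of 0.392, 0.791, 0.419 and 0.739. Limma called none of the 4, with an adjusted p of 0.238 or 0.239. Lef1, the partner factor that is also a target, was at 0.155 (SE 0.11), and at 0.09 without KO 1.

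Genes known as targets of β-catenin in other tissues were mixed in sign. Of 15 listed 8 were tested, 4 positive and 4 negative, with a median of 0.06 and 0 passing. Myc was at 9257 ± 2083 in KO and 7487 ± 508 in Flox (SD, n = 4 each), which is 0.28 on the log2 scale (SE 0.14), and Rnf43 was at -0.15 (SE 0.18). Myc was at 0.16 without KO 3 and at 0.01 without KO 1 and KO 3, and Rnf43 at -0.03 without Flox 1. The deepest Ago2 region among them was in Cd44, a surface glycoprotein, at 647.54 reads per nucleotide.

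Cadherins and catenins, the junction partners, were sparse, with 7 of 13 tested, 3 positive and 4 negative and a median of 0.00. Jup, which encodes plakoglobin, the closest relative of β-catenin, had 7.6 to 25.4 normalized counts in KO and 5.8 to 23.3 in Flox, and 0 Ago2 regions were assigned to it. Ctnnal1, an α-catenin-like gene, was at -0.23 (SE 0.12), Ctnnd1, which encodes p120 catenin, at -0.63 (SE 0.35) with means of 17.1 and 26.9, and Vcl, which encodes vinculin, at 0.22 (SE 0.17). Without KO 1 Ctnnal1 was at -0.13 and Vcl at 0.11, and without KO 1 and KO 3 Ctnnd1 was at -0.39. Among genes that act on or beside MARCKS 17 of 21 tested were positive and 0 passed. The median was 0.10, or 0.05 without KO 1 and KO 3. Prkcb, the main protein kinase C of B cell receptor signalling, was at 2775 ± 118 in KO and 2390 ± 93.4 in Flox (SD, n = 4 each). The groups did not overlap, as in 7.97% of all genes tested, and Prkcb too was named for its small p. Its log2 fold change was 0.215 (SE 0.07, limma adjusted p = 0.258), and 0.025 with span and GC content fitted out. Prkca, another kinase of the family, was at 0.30 (SE 0.12), and 0.10 when these are fitted out, and Pip5k1c and Pip4k2b, which make PIP2, at 0.21 (SE 0.09) and 0.21 (SE 0.10). Without KO 1 and KO 3 Prkca was at 0.07 and Pip5k1c at 0.11. The part of KO 1 and KO 3 in these list values beyond the values given was not tested.

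**Figure D5:**
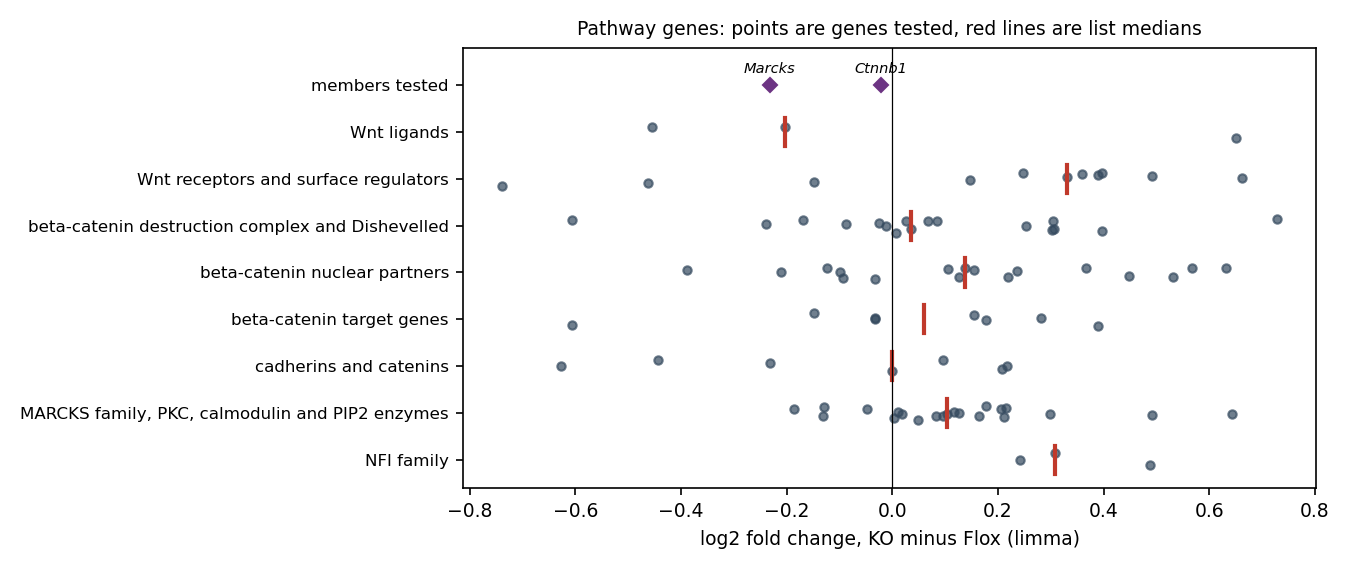
Limma log2 fold change (KO minus Flox, x axis) of every tested gene in 8 pathway lists (points, jittered vertically), with list medians as red lines and Ctnnb1 and Marcks as purple diamonds. Ctnnb1 lies at -0.02 and Marcks at -0.23, and 0 of the points passed in limma.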

How the data were processed

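The authors' deposited RNA-seq table holds a signal, gene counts divided by 1 size factor per library and rounded to 1 decimal, per the file headers and values; at least 99.96% of values were whole reads within 0.1 read. Build mm9 and the tools cutadapt, Bowtie2, SAMtools, STAR, DESeq2 and DESeq are named, without versions or roles, per the submitters' processing notes. Gene positions are those of GRCm38: 99.87% of 20119 coding genes overlap their RefSeq GRCm38.p6 position. This check did not cover the CLIP positions, which were taken to be of the same build. At RefSeq GRCm38.p6 positions 363 of 430 tRNA genes overlapped a CLIP region. The authors' table also gives a log2 fold change, p-value-based FDR and GC percent, per the file headers. dCLIP output gives a difference score, a state (other) and coverage signal of 2 unnamed conditions per 5-nt bin, per the file headers, with libraries not kept apart; the coverage columns were used only as their sum, apart from the check of the score. The 2 mutation columns and 8 stabilized columns were not used. Regions were bins joined by run and state, matched 100% to the deposited summary, and given to genes they overlap by 1 nt on the same strand (bedtools 2.31.1); whether positions count from 0 or 1 is not given in the sources used here.

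The main test was limma-trend (limma 3.58.1) on log2(value + 1), mean of at least 10, Benjamini-Hochberg adjustment at 0.05 over 13091 genes, so fold changes are on that scale; edgeR 4.0.16 and DESeq2 1.42.0 ran on recovered reads. The scripts were tested on simulated data. Members and lists were chosen with earlier results of these data known. Named genes were the members, their 5 paralogs, up to 4 genes per list by p, the 4 most correlated genes with a mean of at least 100 (predicted genes, pseudogenes and antibody genes left out), the 5 highest-scoring regions of each member and its 2 neighbours on each side in rank by score, of which those below Nfib are not reported here. Summits are the deepest bin within 50 nt, of at least 20 reads per nucleotide. Alternatives were scaling, filters, pseudocount, test, block, left-out libraries, and a spline correction (4 degrees of freedom) for span and GC.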

Additional observations from a re-analysis of the deposited data

Results flagged for a closer look

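In 66 groups of 4 libraries of the genes named here, 3 held a library far from the other 3 by Dixon's test (gap over range above the critical value for 4 values), and chance gives about 1 in 20 groups. Ctnnb1 was at 10902.4 normalized counts in Flox 1 (gap over range 0.911), against 10146.8 to 10214.4 in the other Flox libraries. Tnks was at 1337.7 in KO 3 (0.885), against 1052.4 to 1085.3 in the other KO libraries. Ctnnd1 was at 26.5 in KO 4 (0.953), against 13.7 to 14.3.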

How the results depend on the processing

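Over 18 alternatives Marcks kept its sign, from -0.34 to -0.07, and Ctnnb1 ran from -0.06 to 0.00, turning sign without Flox 1 (0.002); neither passed in any. Leaving out 1 library gave Ctnnb1 -0.035 to 0.002, Jup -0.15 to 0.53, Marcksl1 -0.25 to 0.043 and Wnt3 -0.97 to 0.11. Without KO 1 and KO 3 the sign turned for Nfia (-0.052), Wnt3 (0.21), Lef1 (-0.016), Vcl (-0.07) and Cdh11 (0.16), and with the span and GC correction for Marcksl1 (0.033); the cause was not tested. The 9 genes past the threshold became 199 with DESeq2, and 8 to 17 with 1 library left out (17 without KO 2, 14 without KO 4). Same-numbered KO and Flox libraries did not deviate together (correlations of -0.094, -0.065, -0.050 and 0.003), and no library correlated best with its own number. With the replicate number as a block 11 genes passed, Ctnnb1 stayed at -0.02 and Marcks at -0.23 (limma adjusted p of 0.934 and 0.490). The share of regions within 3000 nt of the 3′ end, 8.8% in Ctnnb1 and 65.1% in Marcks, became 4.4% and 27.9% within 1000 nt, 13.1% and 90.7% within 5000 nt, and 18.9% and 86.7% for scores of at least 5. Leaving out the tRNA site, and DESeq2 without KO 1 and KO 3, were chosen after the data were seen. Nfib was too low for the test, and without a filter its log2 fold change rests on 3 reads. CLIP coverage is not kept apart by library, so its precision between the 4 KO and 4 Flox CLIP libraries is unknown.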
